A study of Homo sapiens with 15 samples.

Results

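The IFIT and IFI antiviral effector genes are a set of 10 interferon-stimulated genes whose products act on viral RNA, on viral replication or on the release of viral particles. The members were taken by name and comprised IFIT1, IFIT2, IFIT3, IFIT5, IFI6, IFI27, IFI35, IFI44, IFI44L and BST2, 10 of the 60617 gene identifiers in the count tables. All 10 passed the filter on low counts, which kept the 23184 genes whose counts averaged 1 or more per library. The level of these transcripts was compared across 5 treatments of 12Z cells.

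12Z is an immortalized human endometriotic epithelial cell line, and every library came from this 1 line. Messenger RNA was sequenced in 15 libraries, 3 per treatment. In the first group, cells received a small interfering RNA pool against RSAD2 (siRSAD2), then a pBabe plasmid carrying PIK3CA with the activating H1047R substitution, and then insulin (100 nM for 24 h, after 4 h without serum). The second group received siRSAD2 and the H1047R plasmid with vehicle in place of insulin, the third siRSAD2 and the empty plasmid with insulin, and the fourth siRSAD2 and the empty plasmid with vehicle. The fifth group, NT, received a non-targeting siRNA pool, the empty plasmid and vehicle. Transfections were transient, with the plasmid 24 h after the siRNA, so H1047R was an overexpressed plasmid copy beside the cells' own PIK3CA. Insulin and H1047R were given only to siRSAD2 cells among these libraries, so their effects here are effects in RSAD2-depleted cells. The study's methods describe the libraries of a group as independent experiments in the same line, and p-values measure the spread between those libraries.

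Type I and type III interferons signal through JAK kinases to transcription factors that bind the interferon-stimulated response element (ISRE) in the promoters of genes such as these. The 4 IFIT proteins are built of tetratricopeptide repeats and bind viral RNA or each other, IFI6 and IFI27 are small membrane proteins of 1 family, IFI44 and IFI44L are paralogous cytoplasmic proteins, IFI35 is a leucine zipper protein that pairs with NMI, and BST2 (tetherin) holds budding enveloped viruses at the cell surface. RSAD2 encodes viperin, another interferon-stimulated antiviral enzyme, and PIK3CA encodes the catalytic subunit of a lipid kinase that acts downstream of the insulin receptor.

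The promoters of the members were read from RefSeq (GRCh38.p14), and the 250 bases before each start were searched on both strands for GAAANNGAAA, the core of the ISRE, to show what the members share in sequence. The table had an entry for 9 members, all but IFIT2. The motif was found in 8 of these 9, all but IFI35, against 839 of the 27305 genes with a promoter in the table (3.07%). The stretches below cover the matches in 6 members, with the motif or its reverse complement in capitals. IFIT1 had the smallest adjusted p of the members between siRSAD2 and NT cells, IFIT3, IFI6, IFI44 and BST2 are members that rose with H1047R, and IFIT5 holds the motif and is the member whose group means varied least.
IFIT1: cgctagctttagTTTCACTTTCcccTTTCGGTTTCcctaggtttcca
IFIT3: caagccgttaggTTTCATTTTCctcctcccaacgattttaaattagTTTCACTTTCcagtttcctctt
IFIT5: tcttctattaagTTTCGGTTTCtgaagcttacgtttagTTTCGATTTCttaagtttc
IFI6: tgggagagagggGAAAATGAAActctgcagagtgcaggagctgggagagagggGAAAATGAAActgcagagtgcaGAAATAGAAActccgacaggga
IFI44: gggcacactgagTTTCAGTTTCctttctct
BST2: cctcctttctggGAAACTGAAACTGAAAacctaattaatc

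These stretches lie at chr10:89392495-89392541 (plus strand) for IFIT1, chr10:89327829-89327896 (plus) for IFIT3, chr10:89414511-89414567 (plus) for IFIT5, chr1:27672264-27672360 (minus) for IFI6, chr1:78649759-78649788 (plus) for IFI44 and chr19:17405733-17405772 (minus) for BST2. Counted from the start, where −1 is the base before it, the first match began at −116 in IFIT1, −156 in IFIT3, −45 in IFIT5, −156 in IFI6, −18 in IFI44 and −130 in BST2. IFI6 held 3 matches, IFI44 held 1, and the others held 2, which in BST2 share 4 bases. The motif was also matched in the promoters of IFI27 and IFI44L, 2 times each. A match describes these letters and not a bound site.

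Total counts over genes ranged between 16.1 M and 39.7 M per library (M, mega), with a median of 24.3 M. Levels are given as CPM, counts per M counts of the library after scaling between libraries. RSAD2 stood at 0.0768 to 1.41 CPM in the 12 siRSAD2 libraries, against 3.0 to 3.69 CPM in the NT libraries. Among siRSAD2 cells RSAD2 was itself higher with H1047R (average log2 difference 1.43 ± 0.34, edgeR adjusted p = 0.0165), with means of 0.837 and 0.899 CPM with insulin and vehicle, against 0.331 and 0.326 CPM with the empty plasmid. The RSAD2 transcript left after knockdown thus differed between the plasmids. No H1047R group with non-targeting siRNA is among these libraries, so a weaker knockdown and a higher RSAD2 output cannot be told apart. The part of this difference in the results was not tested. PIK3CA was at 160 to 223 CPM in the 6 H1047R libraries, against 76.4 to 109 CPM in the other 9. Among H1047R cells PIK3CA was lower with insulin (160 to 164 CPM) than with vehicle (199 to 223 CPM). The log2 difference was −0.38 ± 0.05 (edgeR adjusted p = 9.53e-06). The PIK3CA transcript level thus differed between the 2 H1047R groups, and its part in the comparisons that use them was not tested. Epithelial keratin transcripts were abundant in every library (KRT8 821 to 1106 CPM), while the epithelial adhesion transcripts EPCAM (at most 0.617 CPM) and CDH1 (at most 0.959 CPM) were near 0 and the mesenchymal transcript VIM was at 1491 to 2310 CPM. The summed level of 12 immune-cell markers was 4.42 to 12.6 CPM. Most of it came from CD14 (2.69 to 5.13 CPM) and PTPRC (0.496 to 8.95 CPM), while NKG7 and LILRA4 had no count in any library. Library 2 of the siRSAD2 empty-plasmid vehicle group was the highest of its group in all 10 members and in 33.4% of all genes, and the lowest of its group in RSAD2. The share of reads on the strand opposite to the gene (the forward-strand share) was 6.11 to 6.50% in the 6 H1047R libraries and in library 3 of the empty-plasmid insulin group, against 5.77 to 5.89% in the other 8. Reads outside genes split the libraries the same way, at 4.34 to 5.19% against 3.35 to 4.11% of read pairs. In such bulk libraries, fewer expressing cells and less RNA per cell cannot be told apart.

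Per kilobase of exon, the mean level over the 15 libraries was highest for IFI6 (61.1 CPM per kb), followed by IFIT3 (25.4), IFI35 (21.8), IFIT2 (20.9), IFIT1 (17.3), IFIT5 (9.73), IFI44 (6.66) and BST2 (5.81), and lowest for IFI27 (0.159) and IFI44L (0.157). IFI6 was above 97.6% of tested genes on this scale and IFI44L above 26.2%. The counts behind these levels were 1205 to 3562 per library for IFIT1, 14 to 128 for IFI44L, 41 to 363 for BST2 and only 3 to 33 for IFI27, so the values of IFI27 and IFI44L carry the widest errors.

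siRSAD2 cells with H1047R and insulin had the highest mean of the 5 groups in 9 of the 10 members, and NT cells had the highest mean of IFIT5. The lowest mean was in siRSAD2 empty-plasmid cells with insulin for 2 members (IFI6 and IFI35), in those with vehicle for 4 (IFIT1, IFIT5, IFI44 and IFI44L), and in NT cells for 4 (IFIT2, IFIT3, IFI27 and BST2). The highest group mean exceeded the lowest by 4.4-fold for IFI44L, 4.11-fold for BST2, 3.37-fold for IFI27, 2.32-fold for IFI44, 1.92-fold for IFI6, 1.68-fold for IFIT2, 1.59-fold for IFIT3, 1.57-fold for IFIT1, 1.20-fold for IFI35 and 1.18-fold for IFIT5. In a single test for any difference among the 5 groups (edgeR quasi-likelihood, Benjamini-Hochberg adjustment over 23184 genes), all 10 members passed an adjusted p of 0.05, where 28.4% of all genes did. The adjusted p of the members lay between 7.26e-10 (IFI44) and 0.0438 (IFI35).

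**Figure D1:**
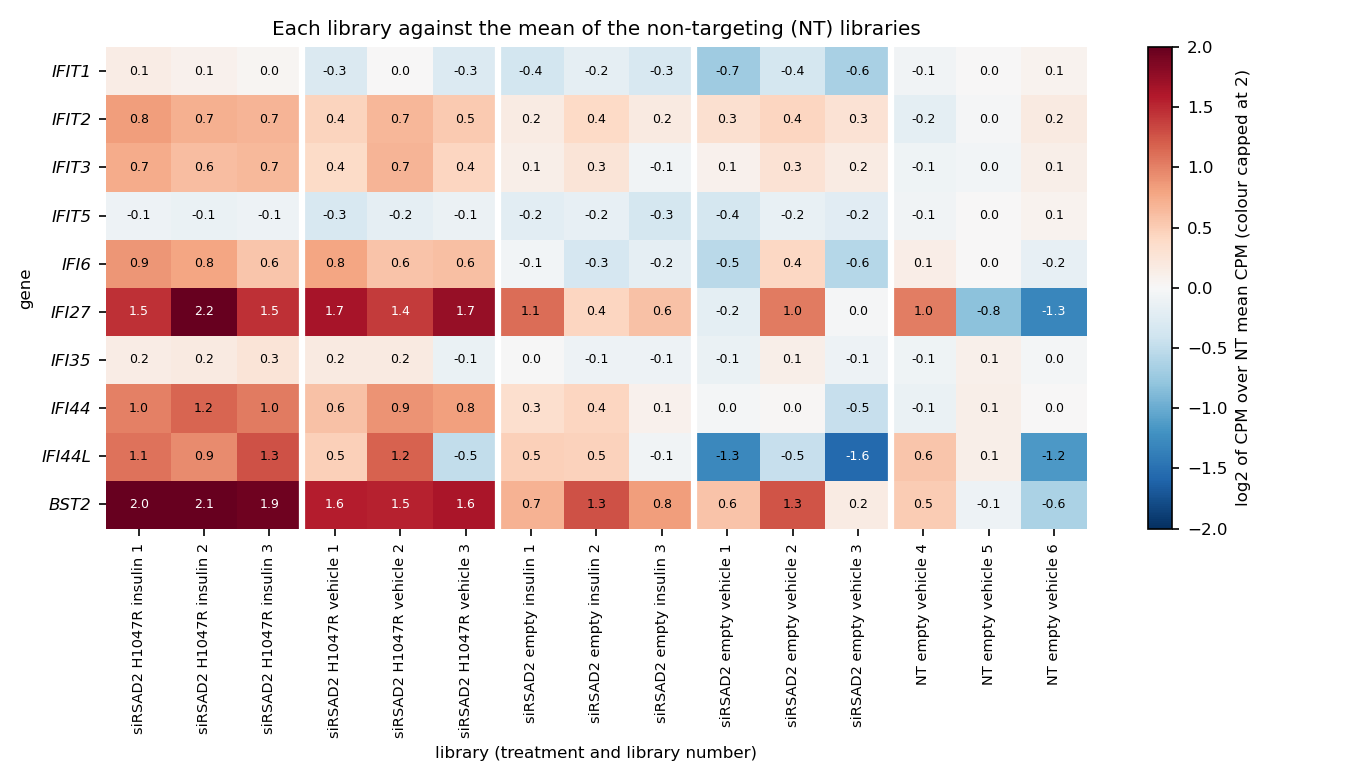
Level of each member in each of the 15 libraries, as log2 of its level over the member's mean in the NT libraries (colour scale), with libraries grouped by treatment along the x axis. The siRSAD2 H1047R insulin group has the highest mean for 9 members, although single libraries of other groups reach into its range for some. IFIT5 is a little below its NT mean in the siRSAD2 libraries.

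H1047R was compared with the empty plasmid, first with vehicle, to ask how mutant PIK3CA moved the antiviral transcripts in RSAD2-depleted cells. Of the 10 members 6 rose and none fell: IFI44L, BST2, IFI44, IFI6, IFIT1 and IFIT3. Their log2 fold changes ran between 0.33 (IFIT3) and 1.64 (IFI44L), and the median of the 10 members was 0.60, against 0.00 over all genes tested. In the same comparison 1.36% of all genes were called in either direction and 0.621% were called higher. In the presence of insulin, H1047R against the empty plasmid again gave 6 members that rose and none that fell, and these were BST2, IFI6, IFI44, IFIT3, IFIT2 and IFIT1, with log2 fold changes between 0.37 (IFIT1) and 1.07 (BST2) and a member median of 0.66. Of all genes 0.285% were called there, and 0.22% were called higher. The libraries of the 2 groups did not overlap for 7 members with vehicle (all but IFIT5, IFI35 and IFI44L), where they did not for 19% of all genes tested, and for all 10 with insulin, where they did not for 12.8%.

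**Figure D2:**
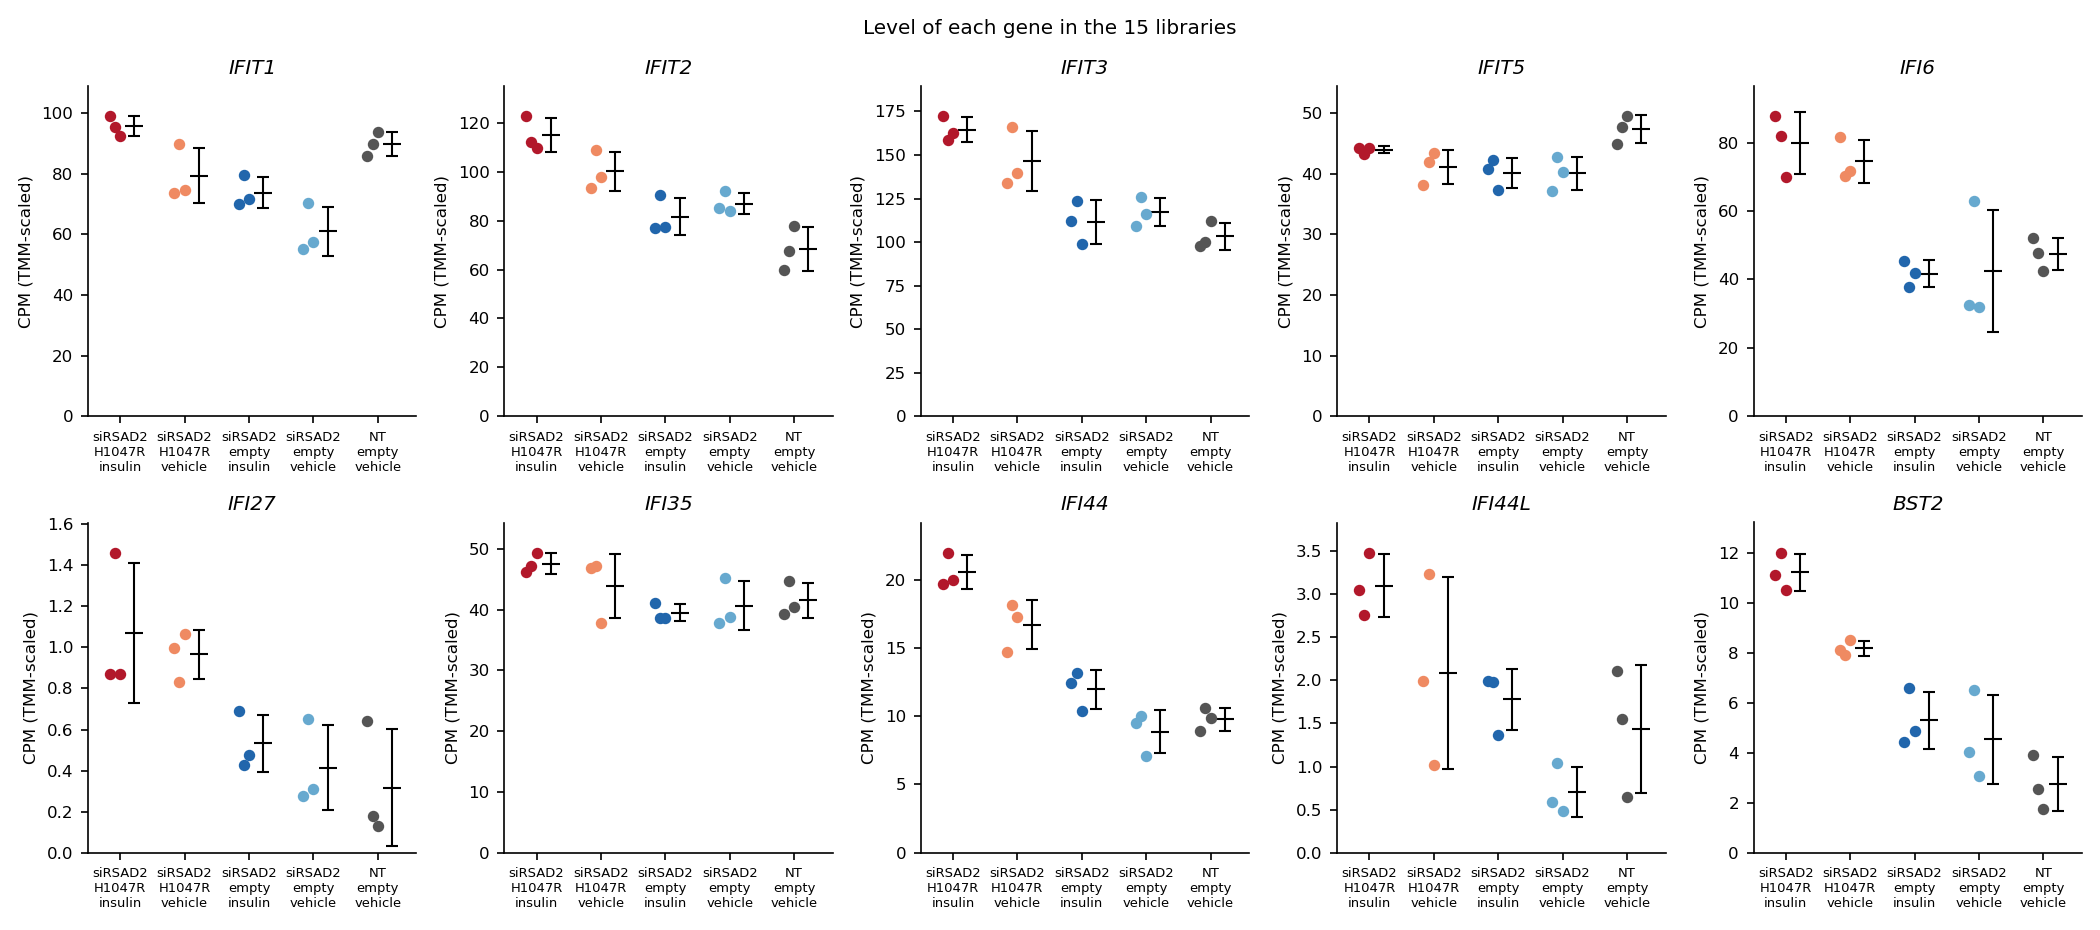
Level (CPM) of each of the 10 members in every library, with 1 panel per member, 1 point per library and a bar at the group mean with its SD (n = 3), with the H1047R groups to the left of the empty-plasmid groups and NT at the right. For IFI44 and BST2 the 6 H1047R libraries all sit above the 9 others.

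Among the IFIT genes, which lie side by side on the plus strand of chromosome 10 within 137.9 kb (hg38, chr10:89283694-89421605), IFIT3 had the largest H1047R effect with insulin. IFIT3 (ENSG00000119917.14, chr10:89327307-89377473), which binds IFIT1 and stabilizes its hold on RNA, was at 172, 159 and 163 CPM in siRSAD2 H1047R insulin libraries, 134, 166 and 139 CPM in H1047R vehicle libraries, 112, 124 and 98.8 CPM in empty-plasmid insulin libraries, 109, 126 and 116 CPM in empty-plasmid vehicle libraries and 97.7, 99.96 and 112 CPM in NT libraries. All 6 H1047R libraries lay above all 9 others. IFIT3 rose with H1047R by 0.33 ± 0.07 (log2, SE) with vehicle (edgeR adjusted p = 0.0199) and by 0.56 ± 0.07 with insulin (adjusted p = 9.39e-05). IFIT2 (ENSG00000119922.10, chr10:89283694-89309271), an RNA-binding member that pairs with both IFIT1 and IFIT3, was at 123, 112 and 110 CPM in H1047R insulin libraries, 93.4, 109 and 98.0 CPM in H1047R vehicle libraries, 77.1, 90.6 and 77.4 CPM in empty-plasmid insulin libraries, 85.0, 92.0 and 83.9 CPM in empty-plasmid vehicle libraries and 59.96, 67.5 and 77.9 CPM in NT libraries. The H1047R libraries were again all above the others, and the NT libraries were at the bottom, where only NT library 6 reached into the empty-plasmid insulin range. IFIT2 rose with H1047R when insulin was present (0.49 ± 0.08, adjusted p = 0.000788), and with vehicle the difference was 0.21 ± 0.07 (adjusted p = 0.189).

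IFIT1 (ENSG00000185745.10, chr10:89392546-89406487), which binds viral RNA whose cap lacks host methylation, followed another order across the groups. It was at 99.0, 95.3 and 92.5 CPM in siRSAD2 H1047R insulin libraries, 73.5, 89.95 and 74.7 CPM in H1047R vehicle libraries, 69.9, 79.6 and 71.7 CPM in empty-plasmid insulin libraries, 55.1, 70.2 and 57.6 CPM in empty-plasmid vehicle libraries and 85.7, 89.9 and 93.8 CPM in NT libraries. NT libraries were thus near the top for IFIT1, and the empty-plasmid vehicle libraries were at the bottom. IFIT1 rose with H1047R by 0.39 ± 0.08 with vehicle (edgeR adjusted p = 0.00692) and by 0.37 ± 0.08 with insulin (adjusted p = 0.021). IFIT5 (ENSG00000152778.9, chr10:89414568-89421605), a binder of RNA with free terminal phosphates and of some cellular RNA, averaged 43.9 ± 0.596 CPM in H1047R insulin cells, 41.1 ± 2.79 CPM in H1047R vehicle cells, 40.1 ± 2.54 CPM in empty-plasmid insulin cells, 40.0 ± 2.77 CPM in empty-plasmid vehicle cells and 47.4 ± 2.28 CPM in NT cells (SD, n = 3 each). Its H1047R differences were 0.04 with vehicle and 0.13 with insulin, with adjusted p of 0.882 and 0.521. None of the neighbours in the order of its 5 group means passed the test.

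IFI44 and IFI44L, paralogues that restrict some viruses in cell culture and whose genes are neighbours on chromosome 1 (within 44.2 kb, chr1:78619902-78664078, both on the plus strand), both rose with H1047R and vehicle. IFI44 (ENSG00000137965.11, chr1:78649796-78664078) was at 19.7, 21.99 and 19.99 CPM in siRSAD2 H1047R insulin libraries, 14.7, 18.2 and 17.2 CPM in H1047R vehicle libraries, 12.4, 13.1 and 10.4 CPM in empty-plasmid insulin libraries, 9.51, 9.99 and 7.08 CPM in empty-plasmid vehicle libraries and 8.90, 10.6 and 9.87 CPM in NT libraries. The siRSAD2 groups were stacked without overlap in that order, and the NT libraries mixed with both empty-plasmid groups. The rise with H1047R was 0.92 ± 0.11 with vehicle (edgeR adjusted p = 3.21e-05) and 0.77 ± 0.11 with insulin (adjusted p = 0.00048). IFI44L (ENSG00000137959.16, chr1:78619902-78646145) was at 3.05, 2.76 and 3.48 CPM in H1047R insulin libraries, 2.0, 3.23 and 1.01 CPM in H1047R vehicle libraries, 1.99, 1.97 and 1.37 CPM in empty-plasmid insulin libraries, 0.59, 1.04 and 0.49 CPM in empty-plasmid vehicle libraries and 2.11, 1.55 and 0.64 CPM in NT libraries. The H1047R vehicle libraries were spread widely, and the lowest of them lay beneath the highest empty-plasmid vehicle library. IFI44L rose with H1047R by 1.64 ± 0.36 with vehicle (adjusted p = 0.0199), while with insulin its difference was 0.79 ± 0.33 (adjusted p = 0.365).

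IFI6 (ENSG00000126709.15, chr1:27666064-27672212, minus strand), a membrane protein of the endoplasmic reticulum and mitochondria that limits flavivirus replication, was higher in both H1047R groups than in the other 3. It was at 87.8, 82.0 and 69.8 CPM in siRSAD2 H1047R insulin libraries, 81.7, 70.3 and 71.7 CPM in H1047R vehicle libraries, 45.5, 37.8 and 41.9 CPM in empty-plasmid insulin libraries, 32.5, 63.0 and 31.9 CPM in empty-plasmid vehicle libraries and 52.0, 47.8 and 42.5 CPM in NT libraries. Every H1047R library lay above every other library, and library 2 of the empty-plasmid vehicle group stood at nearly 2 times the level of the other 2 of that group. IFI6 rose with H1047R by 0.82 ± 0.14 with vehicle (edgeR adjusted p = 0.00289) and by 0.93 ± 0.15 with insulin (adjusted p = 0.00115). Its relative IFI27 (ENSG00000165949.12, chr14:94104836-94116695), a mitochondrial and nuclear-envelope protein, averaged 1.07 ± 0.341 CPM in H1047R insulin cells, 0.966 ± 0.119 CPM in H1047R vehicle cells, 0.532 ± 0.140 CPM in empty-plasmid insulin cells, 0.414 ± 0.208 CPM in empty-plasmid vehicle cells and 0.317 ± 0.284 CPM in NT cells (SD, n = 3 each). The IFI27 differences for H1047R were large but wide, 1.21 ± 0.46 with vehicle (adjusted p = 0.227) and 0.96 ± 0.46 with insulin (adjusted p = 0.462), so at this depth neither was called.

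BST2 (ENSG00000130303.13, chr19:17402939-17405630, minus strand), the tethering factor at the cell surface, had the largest called rise with H1047R in the presence of insulin. It was at 11.1, 12.0 and 10.5 CPM in siRSAD2 H1047R insulin libraries, 8.12, 7.93 and 8.52 CPM in H1047R vehicle libraries, 4.43, 6.61 and 4.88 CPM in empty-plasmid insulin libraries, 4.04, 6.53 and 3.06 CPM in empty-plasmid vehicle libraries and 3.90, 2.55 and 1.76 CPM in NT libraries. Both H1047R groups were clear of all other libraries and of each other. BST2 rose with H1047R by 0.86 ± 0.20 with vehicle (edgeR adjusted p = 0.0236) and by 1.07 ± 0.20 with insulin (adjusted p = 0.00706). IFI35 (ENSG00000068079.7, chr17:43006740-43014456), the partner of NMI, averaged 47.6 ± 1.68 CPM in H1047R insulin cells, 43.9 ± 5.31 CPM in H1047R vehicle cells, 39.5 ± 1.44 CPM in empty-plasmid insulin cells, 40.6 ± 4.05 CPM in empty-plasmid vehicle cells and 41.5 ± 2.84 CPM in NT cells (SD, n = 3 each). Its H1047R differences were 0.12 with vehicle (adjusted p = 0.561) and 0.27 ± 0.08 with insulin (adjusted p = 0.154), and neither passed.

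**Figure D3:**
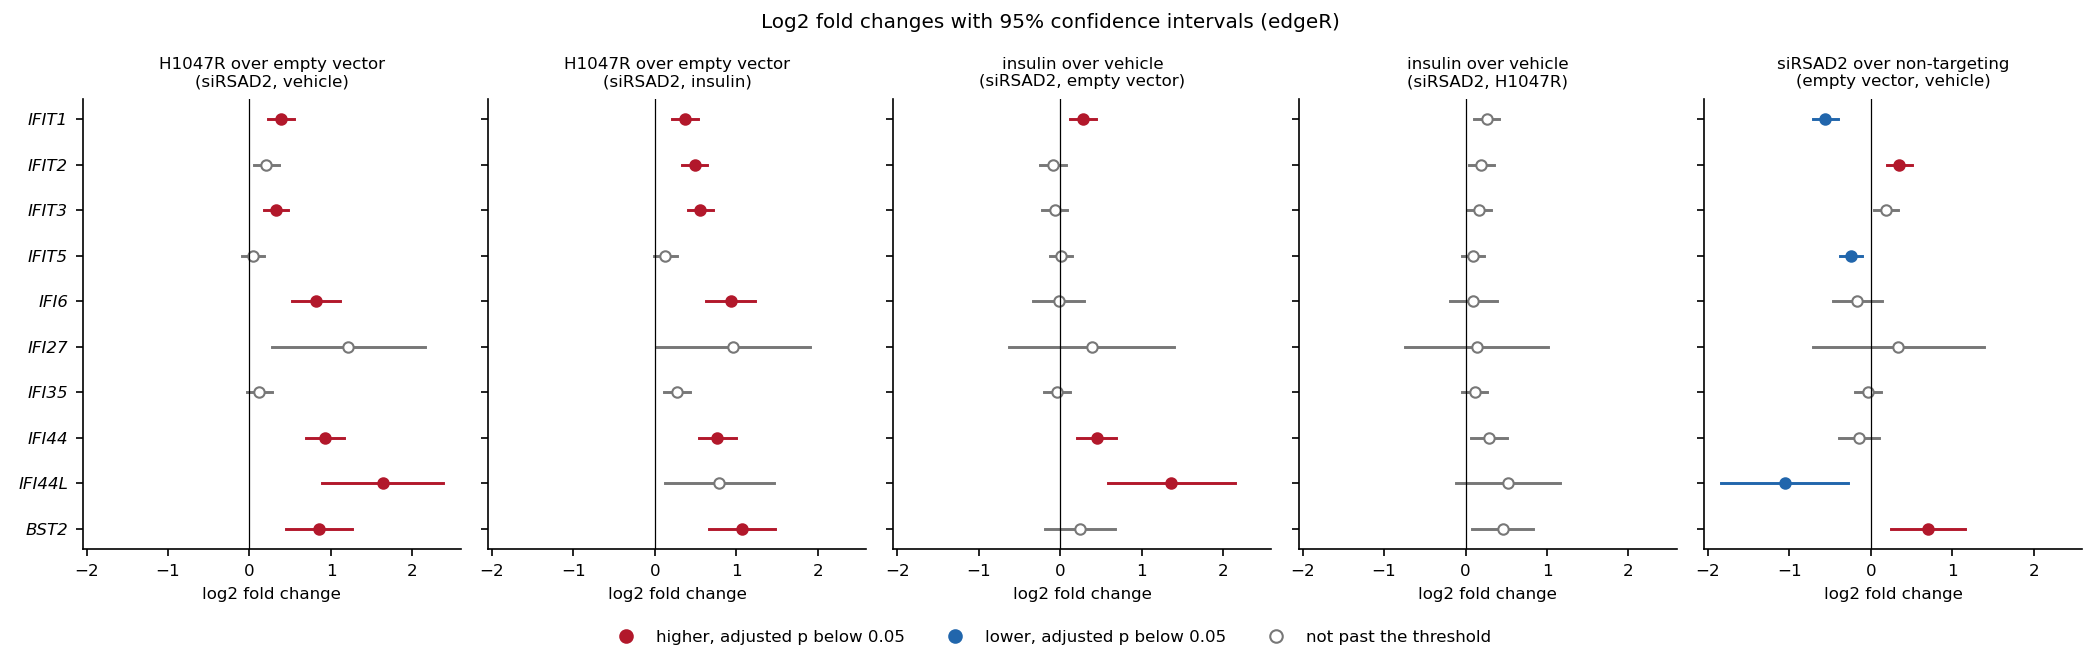
Log2 fold change of each member with its 95% confidence interval (x axis, edgeR) in 5 comparisons, 1 panel each, from H1047R against the empty plasmid with vehicle and with insulin, over insulin against vehicle with the empty plasmid and with H1047R, to siRSAD2 against NT. Filled points passed an adjusted p of 0.05, which 6, 6, 3, 0 and 5 of the 10 members did.

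Over both treatments together, the average H1047R effect was higher for 8 of 10 members, at log2 0.38 ± 0.05 for IFIT1, 0.35 for IFIT2, 0.44 for IFIT3, 0.87 ± 0.10 for IFI6, 0.20 ± 0.06 for IFI35, 0.85 ± 0.08 for IFI44, 1.21 ± 0.25 for IFI44L and 0.96 ± 0.14 for BST2. The edgeR adjusted p was smallest for IFI44 (6.72e-08) and largest for IFI35 (0.0485), and the background was 2.72% of all genes called and 1.47% called higher. The remaining members were IFI27 at 1.09 ± 0.33 (adjusted p = 0.0682) and IFIT5 at 0.09 (adjusted p = 0.418). The median of the 10 was 0.64, against 0.00 over all genes. The call of IFI35 was lost when any of 12 libraries was left out (any NT library, empty-plasmid vehicle 1 or 3, empty-plasmid insulin 2 or 3, H1047R vehicle 1 or 2, or any H1047R insulin library), with adjusted p between 0.0544 and 0.184, and the other 7 calls held in all 15 such fits.

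With vehicle, IFI6 and IFI44 stayed called whichever library was left out, whereas IFIT1 lost its call without H1047R vehicle library 2 (adjusted p = 0.122), IFIT3 without that library or empty-plasmid vehicle library 1, IFI44L without empty-plasmid vehicle 1 or 3 or H1047R vehicle 1 or 2, and BST2 without any of those 4 or H1047R vehicle 3. Between 2 and 6 members were then called. With insulin, IFIT2, IFIT3, IFI6, IFI44 and BST2 stayed called in all 15 fits and IFIT1 lost its call without empty-plasmid insulin 1, H1047R insulin 1 or H1047R insulin 3 (adjusted p between 0.0529 and 0.135). The higher forward-strand share, the higher share of reads outside genes and the H1047R plasmid went together in every vehicle library. Their parts in the vehicle comparison cannot be told apart from these libraries alone. In a fit with a term for libraries above 6%, whose estimate rests on 1 empty-plasmid library, 1 member stayed called with vehicle (IFI44, 1.22 ± 0.21, adjusted p = 0.0238), 3 with insulin (IFIT2, 0.57 ± 0.11, IFIT3, 0.74 ± 0.10, and IFI44, 0.98 ± 0.17) and 2 in the average (IFIT3, 0.66, and IFI44, 1.1). The vehicle differences that lost their call in that fit were 0.45 ± 0.14 for IFIT1, 0.58 ± 0.12 for IFIT3, 0.81 ± 0.28 for IFI6, 2.17 ± 0.66 for IFI44L and 1.03 ± 0.39 for BST2. These estimates were about as large as before or larger, and their errors were wider. Among libraries above 6% alone, where the 3 H1047R insulin libraries could be set only against empty-plasmid insulin library 3, the H1047R difference was 0.41 for IFIT1, 0.56 for IFIT2, 0.73 for IFIT3, 0.92 for IFI6, 0.98 for IFI44 and 1.19 for BST2. For the remaining members it was 0.23 for IFIT5, 1.11 for IFI27, 0.30 for IFI35 and 1.19 for IFI44L. Only the sizes of these differences are given, because 1 group was a single library.

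Insulin was compared with vehicle within each plasmid, to ask what the hormone did to these transcripts in RSAD2-depleted cells. With the empty plasmid, 3 of the 10 members rose and none fell, where 6.28% of all genes were called in either direction. IFI44L rose by 1.36 ± 0.38 (log2, edgeR adjusted p = 0.0266), IFI44 by 0.45 ± 0.12 (adjusted p = 0.0198) and IFIT1 by 0.28 ± 0.08 (adjusted p = 0.0273). IFI44 averaged 12.0 ± 1.44 CPM with insulin and 8.86 ± 1.56 CPM with vehicle, and IFI44L 1.78 ± 0.355 CPM with insulin and 0.704 ± 0.293 CPM with vehicle (SD, n = 3 each), and for both genes, 2 of 10 members, the 2 groups did not overlap, as for 18.9% of all genes tested. The other 7 members had differences between −0.09 (IFIT2) and 0.39 (IFI27), and the median of the 10 was 0.12, against 0.00 over all genes.

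These insulin calls depended on which libraries were in the fit. No member was called without empty-plasmid vehicle library 3 or without empty-plasmid insulin library 2, 1 was called without empty-plasmid vehicle 1 (IFI44) or empty-plasmid insulin 1 (IFIT1), and 4 without empty-plasmid vehicle 2, where IFI6 joined at 0.36 (adjusted p = 0.0188) in place of −0.02 with all libraries. Fitted on the 6 libraries of this comparison alone, edgeR called none of the 10 (3 had an unadjusted p under 0.05, the same IFIT1, IFI44 and IFI44L).

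With H1047R, insulin against vehicle gave no member past the threshold in edgeR (5 had an unadjusted p under 0.05, and DESeq2 called 1, IFIT1), where 2.47% of all genes were called. IFIT1 was nearest, at 95.6 ± 3.30 CPM with insulin and 79.4 ± 9.18 CPM with vehicle (0.26 ± 0.07, adjusted p = 0.0617). The other 4 with an unadjusted p under 0.05 were BST2 (0.45 ± 0.18), IFI44 (0.29 ± 0.11), IFIT2 (0.19) and IFIT3 (0.16), and for IFIT1, IFIT2, IFI44 and BST2, 4 of 10, the libraries of the 2 groups did not overlap, as for 19.4% of all genes tested. The median of the 10 was 0.18. Fitted on these 6 libraries alone, edgeR called those 5 members, and IFIT1 was called in the fit on all libraries when any empty-plasmid vehicle library, empty-plasmid insulin 2 or H1047R vehicle 2 was left out.

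Averaged over both plasmids, insulin was higher for IFIT1 (0.27 ± 0.05, edgeR adjusted p = 0.000953), IFI44 (0.37 ± 0.08, adjusted p = 0.00227) and IFI44L (0.94 ± 0.25, adjusted p = 0.0125), 3 of 10 members where 8.37% of all genes were called. The member median was 0.16, against 0.00 over all genes, and these 3 calls held in all 15 fits that left out a library. Without empty-plasmid vehicle library 2, IFI6 (0.23) and BST2 (0.52) were called as well.

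The interaction asks whether the H1047R effect differed between insulin and vehicle. None of the 10 members passed it in edgeR (2 had an unadjusted p under 0.05, and DESeq2 called 0), where 0% of all genes were called. IFIT2 (0.28 ± 0.11, unadjusted p = 0.0122, adjusted p = 0.687) and IFIT3 (0.23 ± 0.10, unadjusted p = 0.0326, adjusted p = 0.711) had the smallest p among the members, with a larger H1047R difference under insulin. IFI44L pointed the other way, at −0.85 ± 0.49 (adjusted p = 0.764). The calls of IFIT2 with insulin only and of IFI44L with vehicle only were therefore not shown to differ between the treatments.

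H1047R and insulin together were set against siRSAD2 cells with neither. Of the 10 members 7 rose and none fell, where 7.74% of all genes were called: IFI44L (2.16 ± 0.36, edgeR adjusted p = 0.000135), BST2 (1.31 ± 0.19, adjusted p = 2.65e-05), IFI44 (1.21 ± 0.11, adjusted p = 9e-09), IFI6 (0.91 ± 0.14), IFIT1 (0.65 ± 0.08), IFIT3 (0.49) and IFIT2 (0.40). For all 10 members, and for 25.5% of all genes tested, the libraries of the 2 groups did not overlap. The median was 0.78, against 0.00 over all genes. The 7 calls held in all 15 fits that left out a library. With the term for the forward-strand share 3 were called (IFIT1, IFIT3 and IFI44), and the others were at 0.52 ± 0.14 (IFIT2), 0.91 ± 0.28 (IFI6), 2.69 ± 0.66 (IFI44L) and 1.48 ± 0.39 (BST2). Between the single treatments, H1047R cells were higher than insulin cells for IFI6 (0.84), IFI44 (0.48), IFIT3 (0.40) and IFIT2 (0.30), 4 of 10 members, with adjusted p between 0.00036 and 0.0153 and a background of 5.37%. Without H1047R vehicle library 2, 2 of these calls remained (IFIT3 and IFI6), and IFIT2 lost its call also without empty-plasmid insulin 1 or 3.

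For knockdown of RSAD2 alone, siRSAD2 was set against NT with the empty plasmid and vehicle, and members differed in both directions. The NT libraries are numbered 4 to 6 and the siRSAD2 libraries 1 to 3. An effect of the siRNA and a difference between the libraries so numbered therefore cannot be told apart. Of the 10, 2 rose and 3 fell, where 19.5% of all genes were called. IFIT1 was at −0.56 ± 0.08 (log2, edgeR adjusted p = 1.76e-06) and fell to 61.0 ± 8.10 CPM in siRSAD2 cells, against 89.8 ± 4.04 CPM in NT cells. Its neighbour IFIT2 rose by 0.35 ± 0.08 (adjusted p = 0.000993), to 87.0 ± 4.38 CPM in siRSAD2 cells, against 68.4 ± 9.0 CPM in NT cells. The remaining IFIT genes were IFIT5, which fell by 0.24 (adjusted p = 0.00763), and IFIT3, at 0.18 ± 0.07 (adjusted p = 0.0821), so the 4 genes of 1 cluster did not share a direction. The siRSAD2 and NT libraries did not overlap for IFIT1, IFIT2 and IFIT5, 3 of 10 members, as for 33.2% of all genes tested.

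Outside the IFIT cluster, BST2 rose by 0.70 ± 0.22 (edgeR adjusted p = 0.0249), to 4.54 ± 1.79 CPM in siRSAD2 cells, against 2.74 ± 1.08 CPM in NT cells, and IFI44L fell by 1.06 (adjusted p = 0.049), to 0.704 ± 0.293 CPM in siRSAD2 cells, against 1.43 ± 0.739 CPM in NT cells. The others were at −0.17 (IFI6), 0.33 (IFI27), −0.03 (IFI35) and −0.14 (IFI44), with adjusted p between 0.456 and 0.824. The median of the 10 was −0.09, against 0.02 over all genes. IFIT1 and IFIT2 stayed called in all 15 fits that left out a library, while IFIT5 lost its call without NT 6 or siRSAD2 vehicle 1, BST2 without NT 5, NT 6 or siRSAD2 vehicle 2, and IFI44L without any of 9 (NT 4 or 5, empty-plasmid vehicle 1 or 3, empty-plasmid insulin 1, H1047R vehicle 1 or any H1047R insulin library). Without siRSAD2 vehicle library 2, IFI6 was called as well and fell by 0.54. Cell type markers moved in the same comparison: 7 of 8 stromal markers fell and 1 rose (summed level 6899.65 to 7018 CPM in siRSAD2 cells, against 7185 to 7553 CPM in NT cells). Likewise 4 of 9 epithelial markers fell and none rose (1888 to 2025 CPM in siRSAD2 cells, against 2264 to 2297 CPM in NT cells). Their part in the members' differences was not tested.

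The remaining siRSAD2 groups were also compared with the same NT libraries, and these comparisons therefore share their controls and the same split in library numbers. With insulin, 4 members were called where 20.2% of all genes were: BST2 (0.94 ± 0.23) and IFIT2 (0.26) rose, and IFIT1 (−0.28) and IFIT5 (−0.24) fell. With H1047R, 6 rose and 1 fell where 20.6% of all genes were called, led by BST2 (1.56, edgeR adjusted p = 1.71e-06), IFI27 (1.55, adjusted p = 0.0181), IFI44 (0.78) and IFI6 (0.65), with IFIT5 the one that fell (−0.20, adjusted p = 0.0265). With H1047R and insulin, 7 rose and none fell where 23.5% of all genes were called, and BST2 at 2.01 ± 0.21 (adjusted p = 1.06e-08), IFI27 at 1.68 ± 0.48 (adjusted p = 0.00896), IFI44L at 1.1 and IFI44 at 1.07 were the largest. IFIT1 was then at 0.09 (adjusted p = 0.453), with 95.6 ± 3.30 CPM in H1047R insulin cells and 89.8 ± 4.04 CPM in NT cells. The member medians were 0.19, 0.57 and 0.75, against 0.02, 0.03 and 0.04 over all genes.

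These NT comparisons varied with the libraries. IFI27, with 3 to 33 counts, lost its call with H1047R when NT 5, NT 6 or H1047R vehicle 1 or 3 was left out, and with H1047R and insulin when NT 5, NT 6 or H1047R insulin 2 was. IFIT5 lost its call with H1047R without NT 5, NT 6 or H1047R vehicle 1, and IFI44L lost its call with H1047R and insulin without NT 6 or H1047R insulin 3. In the insulin comparison IFIT1 lost its call without NT 6, IFIT2 without NT 4, NT 5 or empty-plasmid insulin 2, and IFIT5 without NT 6 or empty-plasmid insulin 3.

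In the order of the 5 group means, few neighbours differed by the test. IFIT1 was higher in empty-plasmid insulin than in empty-plasmid vehicle cells, IFIT2 in empty-plasmid insulin than in NT cells, IFIT3 in H1047R vehicle than in empty-plasmid vehicle cells, IFI6 in H1047R vehicle than in NT cells and IFI44 in H1047R vehicle than in empty-plasmid insulin cells. For IFI44L the step was between NT and empty-plasmid vehicle cells, with NT higher, and for BST2 between empty-plasmid vehicle and NT cells, with NT lower. No other pair of neighbours passed, and IFIT5, IFI27 and IFI35 had no such step.

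Across the 15 libraries, the pattern of the members was compared with that of other genes by Pearson's r with the mean of the standardized log2 levels of 9 members, IFI27 being left out because its mean was under 1 CPM. Of the 13108 genes ranked, the most alike were OAS2 (r = 0.955), MX1 (0.949), MX2 (0.943), OAS1 (0.938) and XAF1 (0.933). The points share treatment groups and the libraries' makeup, so the coefficients are descriptions. Among the members, each against the mean of the others, r was 0.90 for IFI44, 0.86 for IFI6, 0.85 for IFIT3, 0.75 for IFI35 and IFI44L, 0.72 for BST2, 0.70 for IFIT2 and 0.68 for IFIT1. IFIT5 stood apart at 0.18.

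**Figure D4:**
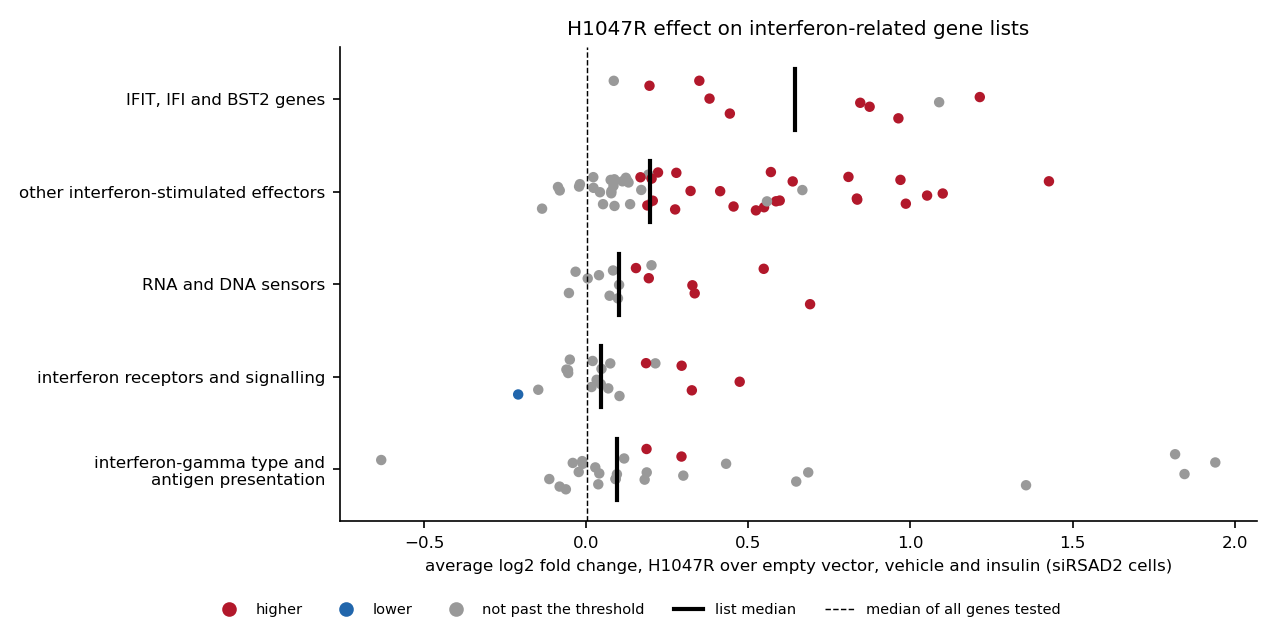
Log2 fold change for the average H1047R effect (edgeR, H1047R over the empty plasmid in siRSAD2 cells) of the genes of each list, 1 point per gene tested. Genes past an adjusted p of 0.05 are red (higher) or blue (lower), the others are grey, and a line marks each list's median. The 10 members have the highest median, at 0.64.

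Other genes of the interferon pathway gave the setting for the members in the average H1047R effect, where 2.72% of all genes were called and 1.47% were called higher. Of 48 other interferon-stimulated effector genes tested, 24 rose and none fell, with a median of 0.20, and OASL (1.05 ± 0.09), an enzyme-dead relative of the oligoadenylate synthetases, PLAAT4 (0.81), a phospholipase-like growth inhibitor, and HERC5 (0.64), the ligase that attaches ISG15, were among them. Of 15 RNA and DNA sensors, 6 rose and none fell, with a median of 0.10, including the helicase DDX60 (0.69) and the RNA receptors RIGI (0.55) and IFIH1 (0.33). Of 19 receptors and signalling genes, 4 rose and 1 fell, with a median of 0.04, and these included USP18 (0.47), which restrains the receptor, while IRF2, a repressor of the pathway, fell by 0.21. Of 27 genes of antigen presentation and the response to interferon gamma, 2 rose (B2M, 0.19, and HLA-B, 0.29) and none fell, and of 6 relatives of the members by name, 1 rose (IFIH1, which the sensors also hold).

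With siRSAD2 against NT, where 19.5% of all genes were called, 4 of the 48 other effectors rose and 12 fell, of the 15 sensors 3 rose and 3 fell, of the 19 signalling genes none rose and 5 fell, and of the 27 antigen presentation genes 2 rose and 5 fell. With insulin against vehicle and the empty plasmid, where 6.28% of all genes were called, 4 of the 48 effectors rose and 2 fell.

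The interferon genes themselves were nearly silent. Of 22 interferon genes in the tables, 17 had no count in any library, which allows up to 3 counts each over these libraries by counting error, and 5 had some. Over all 15 libraries the totals were 111 counts for IFNE, 18 for IFNL1, 5 for IFNB1, 3 for IFNL4 and 2 for IFNL2. Of the 5 IFNB1 counts 4 were in H1047R insulin libraries and 1 in NT libraries. Only 2 interferon genes passed the filter on low counts, and edgeR called neither in any of these comparisons.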

How the data were processed

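mRNA libraries were made from 500 ng of total RNA of 12Z cells and sequenced. Per the study's methods and the submitters' processing notes, the authors used cutadapt and Trim Galore for trimming, FastQC for quality control, STAR for alignment to hg38 and DESeq2 for testing, and versions are not given in the sources used here. The methods name GENCODE vM16 as annotation, whereas the identifiers in the tables are human. The deposited values are raw STAR counts per gene for each library, unstranded, forward and reverse, with no normalization. STAR leaves out reads that overlap more than 1 gene, which bears on IFIT2, IFIT3 and IFI6, each overlapped by another gene on its own strand. The reverse counts were used, and the forward counts served only for the share of opposite-strand reads. The 4 summary entries that name no gene, 22.2 to 30.5% of read pairs, were left out.

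Genes averaging 1 or more counts per library were retained and scaled by TMM, and the 5 groups were fitted in 1 model with edgeR 4.0.16 (quasi-likelihood, R 4.3.3), with Benjamini-Hochberg adjustment over 23184 genes at 0.05 in each comparison. Symbols and coordinates came from GENCODE 44 on hg38 (60357 of 60617 identifiers matched). The fit was tested on simulated data. All members were named, with the genes of each list that passed in the average H1047R effect (at most 4 per list, by p), each interferon gene with any count, RSAD2 and PIK3CA, and the 5 genes most like the members in pattern, and 1 gene that this rule names is not reported here. The members and lists were chosen with earlier results of these data known. Replicate libraries differed by more than sampling noise (chi-square per degree of freedom 3.06 to 12.3), so none was counted as a duplicate.

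Alternatives were DESeq2 1.42.0, RLE scaling, filterByExpr, no filter, unstranded counts, the compared groups alone, a replicate block, an adjusted p under 0.001, leaving out each library, and leaving out empty-plasmid vehicle library 3 with empty-plasmid insulin library 2. Added after the data were seen were a term for libraries with a forward-strand share above 6%, those libraries alone, and the siRSAD2 libraries without the block.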

Additional observations from a re-analysis of the deposited data

Results flagged for a closer look

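The forward-strand column, which holds reads on the strand opposite to the gene and entered no comparison, had counts at 4 members that were higher in every H1047R library than in every NT library. As counts per M gene counts they averaged 0.755 in siRSAD2 H1047R insulin cells, 0.556 in H1047R vehicle cells and 0.101 in NT cells at IFIT2, 1.52, 1.61 and 0.341 at IFIT3, 1.36, 1.24 and 0.652 at IFIT5, and 0.716, 0.655 and 0.183 at IFI6. In empty-plasmid cells they averaged 0.193 with insulin and 0.268 with vehicle at IFIT2, 0.637 and 0.507 at IFIT3, 0.985 and 0.986 at IFIT5, and 0.117 and 0.0712 at IFI6. These are few reads, 0 to 82 per library, and the forward-strand share over all genes was higher in the H1047R libraries too. The share of all genes separated in this way was not computed, and NT cells also differed from H1047R cells in siRNA. The highest empty-plasmid library was above the lowest H1047R library at IFIT2 (0.496 against 0.424) and IFIT3 (1.36 against 0.699). The same held at IFIT5 (1.52 against 1.05), though not at IFI6. IFIT2 and IFIT3 overlap LIPA on the other strand, IFI6 overlaps ENSG00000225886 and IFIT5 overlaps no annotated gene there, and the part of such neighbours in these counts was not tested.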

How the results depend on the processing

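IFI27 and IFI44L had low counts and wide errors, and each group had 3 libraries. Counts of called members, with the count as reported in brackets, moved as follows. At an adjusted p under 0.001 edgeR called 2 with siRSAD2 against NT (5), 0 with insulin and the empty plasmid (3), 1 with H1047R and vehicle (6), 3 with H1047R and insulin (6), 0 with siRSAD2 and insulin against NT (4), 4 with siRSAD2 and H1047R against NT (7), 2 with H1047R against insulin (4) and 1 in the average insulin effect (3). On the compared groups alone it called 0 with insulin and the empty plasmid and 5 with insulin and H1047R (0), and without empty-plasmid vehicle library 3 and empty-plasmid insulin library 2 together 0 and 1. Insulin with H1047R gave 1 under RLE, filterByExpr, unstranded counts, the replicate block and DESeq2, and 3 with no filter. With the forward-strand term it called 1 with H1047R and vehicle, 3 with H1047R and insulin, 3 for both against neither (7), 4 for siRSAD2 and H1047R against NT, 4 for siRSAD2, H1047R and insulin against NT (7), 2 for H1047R against insulin and 2 in the average H1047R effect (8). For H1047R with vehicle and for both against neither, the differences that lost their call in that fit were about as large as before or larger, with wider errors. The cause of these moves was not tested beyond what the text gives. Leaving out 1 library gave 3 to 6 with siRSAD2 against NT, 0 to 4 with insulin and the empty plasmid, 0 to 1 with insulin and H1047R, 2 to 6 with H1047R and vehicle, 2 to 5 with siRSAD2 and insulin against NT, 2 to 5 with H1047R against insulin and 3 to 5 in the average insulin effect. For IFI6 with insulin and the empty plasmid (−0.02) it gave −0.19 to 0.36. The replicate block moved no other count of calls by over 1.5 times, with 3, 6 and 6 for insulin with the empty plasmid and H1047R with vehicle and with insulin. Taken over all 18 pairs, same-numbered libraries of the siRSAD2 groups did not deviate together. The correlation of deviations was between −0.127 and 0.156, against −0.147 to 0.130 over 36 pairs of other numbers. Between the empty-plasmid insulin and H1047R insulin groups, however, same-numbered pairs were all positive (0.156, 0.138 and 0.0871). Pairs of other numbers in those groups were all negative (−0.147 to −0.00434). The deviations of a group sum to 0 for each gene, so these 2 sets of signs are tied and not separate observations. Whether equal numbers mark a shared experiment in those groups was not tested. No paired analysis was possible for comparisons with NT because its libraries carry other numbers.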
